A study of Mus musculus with 16 samples.

Results

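The loci examined are those of 9 genes of MHC class I antigen presentation and of the interferon regulatory factor family, B2m, H2-K1, H2-D1, Tap1, Psmb8, Psmb9, Nlrc5, Irf1 and Irf8, followed by chromatin accessibility. A peak of open chromatin belonged to a gene if the protein-coding transcription start site nearest to its midpoint, within 100 kb, was that of the gene. Of the 136630 nuclear peaks of the table, 49 met this rule: 3 at B2m, 7 at H2-K1, 6 at H2-D1, 2 at Tap1, 1 at Psmb8, 12 at Nlrc5, 5 at Irf1 and 13 at Irf8. Psmb9 had no peak of its own, because it is transcribed from the same short stretch as Tap1 in the opposite direction and the peak over both start sites was counted as Tap1. Of the 49 peaks, 23 lay in introns, 18 between genes, 6 within 1000 bp of a start site and 2 in exons.

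Nucleated cells show peptides from their own proteins on MHC class I molecules, each made of a polymorphic heavy chain and the invariant light chain beta-2 microglobulin, so that T cells can inspect them. The immunoproteasome cuts the peptides, the TAP transporter carries them into the endoplasmic reticulum, and interferon raises the whole set through STAT factors, interferon regulatory factors and the transactivator NLRC5. Loss of this pathway is a known way for pancreatic cancers to escape T cells.

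Accessibility was measured by bulk ATAC-seq, in which a transposase cuts open chromatin, in 16 samples of sorted mKate2-positive shSmad4 tumour cells. These mouse cell lines came from primary pancreatic tumours with Ptf1a-Cre, which acts in the pancreatic epithelium, the Rosa26 allele LSL-rtTA3-IRES-mKate2, and in the Col1a1 locus a GFP-linked, doxycycline-inducible shRNA against Smad4, on a mixed C57BL/6J;129 background. All groups share these alleles and a luciferase transgene, and the number of cell lines behind the samples is not given in the sources used here. Female Foxn1nu athymic nude mice, 6 to 8 weeks old and without mature T cells, received the cells in the pancreas (Panc), into the spleen for growth in the liver (Liv, with the spleen removed) or by the tail vein for growth in the lungs (Lung). All hosts ate doxycycline chow, which keeps Smad4 off (Panc_OFF and Lung_OFF with n = 3, Liv_OFF with n = 2), and in the other mice the drug was withdrawn at 4 (Panc), 5 (Liv) or 6 (Lung) weeks and cells were taken 14 days later (the lung columns of the table say day 15) with Smad4 restored (Panc_ON and Lung_ON with n = 3, Liv_ON with n = 2). Each sample came from its own mouse, and organ cannot be told apart from the time of growth.

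Values are normalised read counts per peak, and between 22.99 M and 38.2 M reads fell in peaks per sample. Libraries Panc_ON_3 and Lung_OFF_1 stood apart. Panc_ON_3 had Spearman correlations across peaks of 0.896 and 0.901 with the other Panc_ON samples and of 0.928 and 0.920 with Lung_ON_1 and Lung_OFF_1, against a median of 0.951 for pairs of the same group. Lung_OFF_1 was high at the start site of the endothelial gene Cdh5 (697, with 14 to 129 in the 15 other samples) and over part of chromosome 6, where none of the 49 peaks lies. All 6 epithelial markers (Krt8, Krt18, Krt19, Epcam, Cdh1 and Cldn4) had a peak at their start site, with summed counts of 11838 to 45451 over samples. Of 9 macrophage and dendritic cell markers, 4 had a peak at the start site (Csf1r 6 to 54, Itgax 17 to 74, Cd68 178 to 776 and Flt3 148 to 378), with sums of 494 to 576 in Panc_OFF, 516 to 702 in Panc_ON, 627 to 969 in Liv_OFF, 828 to 847 in Liv_ON, 654 to 769 in Lung_OFF and 634 to 674 in Lung_ON. Ptprc, Spi1, Itgam, Adgre1 and Lyz2 had none there, nor did any of 4 B cell or 4 T and NK cell markers.

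The promoters of genes whose results follow are shown first, to let a reader see which interferon-type motifs they hold. Sequences are RefSeq start-site windows of 300 bases on GRCm38.p6, the build of the files (mm10), and run 5′ to 3′ on the strand of the gene from 250 bases before the start. Of the 9 genes, 8 matched the RefSeq table, all but Nlrc5. Tap1 and Psmb9 are not shown because their windows held no exact match to the motifs below. Capitals mark matches on either strand to the interferon-stimulated response element (ISRE, GAAANNGAAA), the gamma-activated site (GAS, TTCNNNGAA), the ETS-IRF composite (GGAANNGAAA or GGAANNNGAAA) and the NF-kB motif (GGGA, any base, TT, any base, CC). An ETS-IRF match can overlap an ISRE match. Irf8, Irf1 and H2-K1 have another RefSeq start each, which is not shown.
B2m promoter, chr2:122147437-122147736, plus strand: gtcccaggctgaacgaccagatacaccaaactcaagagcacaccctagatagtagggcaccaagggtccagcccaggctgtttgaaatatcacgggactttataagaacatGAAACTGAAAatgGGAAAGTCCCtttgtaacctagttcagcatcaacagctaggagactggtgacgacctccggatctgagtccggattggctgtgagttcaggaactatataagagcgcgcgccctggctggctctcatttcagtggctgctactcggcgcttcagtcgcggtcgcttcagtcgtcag
Psmb8 promoter, chr17:34197945-34198244, plus strand: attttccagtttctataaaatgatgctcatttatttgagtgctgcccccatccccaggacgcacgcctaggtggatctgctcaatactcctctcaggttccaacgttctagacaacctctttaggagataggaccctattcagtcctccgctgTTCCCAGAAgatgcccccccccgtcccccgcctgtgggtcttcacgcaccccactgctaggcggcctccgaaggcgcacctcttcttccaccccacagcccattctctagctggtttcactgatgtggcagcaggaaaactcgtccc
Irf1 promoter, chr11:53769764-53770063, plus strand: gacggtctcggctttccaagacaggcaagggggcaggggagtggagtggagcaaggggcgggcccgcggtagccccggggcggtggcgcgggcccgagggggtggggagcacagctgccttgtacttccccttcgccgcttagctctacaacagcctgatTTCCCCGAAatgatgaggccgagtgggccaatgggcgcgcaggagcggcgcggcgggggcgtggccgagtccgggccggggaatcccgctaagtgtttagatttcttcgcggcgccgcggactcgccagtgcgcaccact
Irf8 promoter, chr8:120736108-120736407, plus strand: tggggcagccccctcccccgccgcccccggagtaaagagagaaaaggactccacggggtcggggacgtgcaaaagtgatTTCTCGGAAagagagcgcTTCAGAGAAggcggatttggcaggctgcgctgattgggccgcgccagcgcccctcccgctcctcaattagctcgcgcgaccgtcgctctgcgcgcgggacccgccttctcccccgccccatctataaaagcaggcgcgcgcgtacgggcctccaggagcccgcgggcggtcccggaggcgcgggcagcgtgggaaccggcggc
The B2m window held an ISRE from −139 to −130 (positions from the RefSeq start) and an NF-kB motif from −126 to −117. The Irf8 window held 2 GAS, from −171 to −163 and from −153 to −145, the Irf1 window 1 GAS from −90 to −82, and the Psmb8 window 1 GAS from −97 to −89. An ISRE match occurred in 3.44% of the 32851 promoters of the table, a GAS in 8.30%, an ETS-IRF composite in 5.36% and an NF-kB motif in 1.20%.

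The heavy chain promoters are shown as a pair because H2-K1 and H2-D1 are close paralogs and their counts moved alike. Neither window held an exact match to these motif patterns, and near matches were not searched for.
H2-K1 promoter, chr17:34000298-34000597, minus strand: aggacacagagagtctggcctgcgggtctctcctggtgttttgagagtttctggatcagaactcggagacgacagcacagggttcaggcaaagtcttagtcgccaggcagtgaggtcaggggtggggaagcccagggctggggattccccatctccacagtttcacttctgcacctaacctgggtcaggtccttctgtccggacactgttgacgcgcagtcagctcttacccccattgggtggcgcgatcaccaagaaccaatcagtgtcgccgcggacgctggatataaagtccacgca
H2-D1 promoter, chr17:35262844-35263143, plus strand: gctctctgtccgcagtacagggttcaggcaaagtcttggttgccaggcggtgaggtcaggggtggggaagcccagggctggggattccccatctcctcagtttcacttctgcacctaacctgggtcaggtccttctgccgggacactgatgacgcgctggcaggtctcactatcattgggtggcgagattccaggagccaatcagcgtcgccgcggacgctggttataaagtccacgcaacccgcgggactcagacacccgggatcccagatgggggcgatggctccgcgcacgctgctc
Over 239 aligned bases, 214 were identical (89.5%). Reads from such stretches may fit both genes, and how they were assigned is not given in the sources used here, so the counts of H2-K1 and H2-D1 are not fully separate measurements.

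With Smad4 off, accessibility of the H2-K1 and H2-D1 start sites was higher in the liver than in the pancreas or the lungs. At Irf8, 8 of 13 peaks were called higher in Lung_OFF than in Panc_OFF (6.59% of all peaks). Against Liv_OFF, 8 were called higher in Lung_OFF (26.8% of all peaks) and 1 lower, and these 8 were not all the same peaks. Lung_OFF_1, a library that stood apart, was highest at the Irf8 start site (573, with 281 and 309 in the other Lung_OFF samples). Against the lungs, neither the Tap1 nor the Psmb8 peaks were called, and Nlrc5 had 1 peak higher and 4 lower in the liver, in a background of 22.9% and 26.8% of all peaks. A call needed a log2 fold change of 0.58 or more in size and an adjusted p of 0.1 or less (limma, Benjamini-Hochberg over all nuclear peaks). Of the 49 peaks, 38 were called in at least 1 of the 6 comparisons between organs and 11 in none, and 77.5% of all peaks were called in at least 1. In bulk samples a smaller share of cells with an open locus and less open chromatin per cell cannot be told apart.

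**Figure D1:**
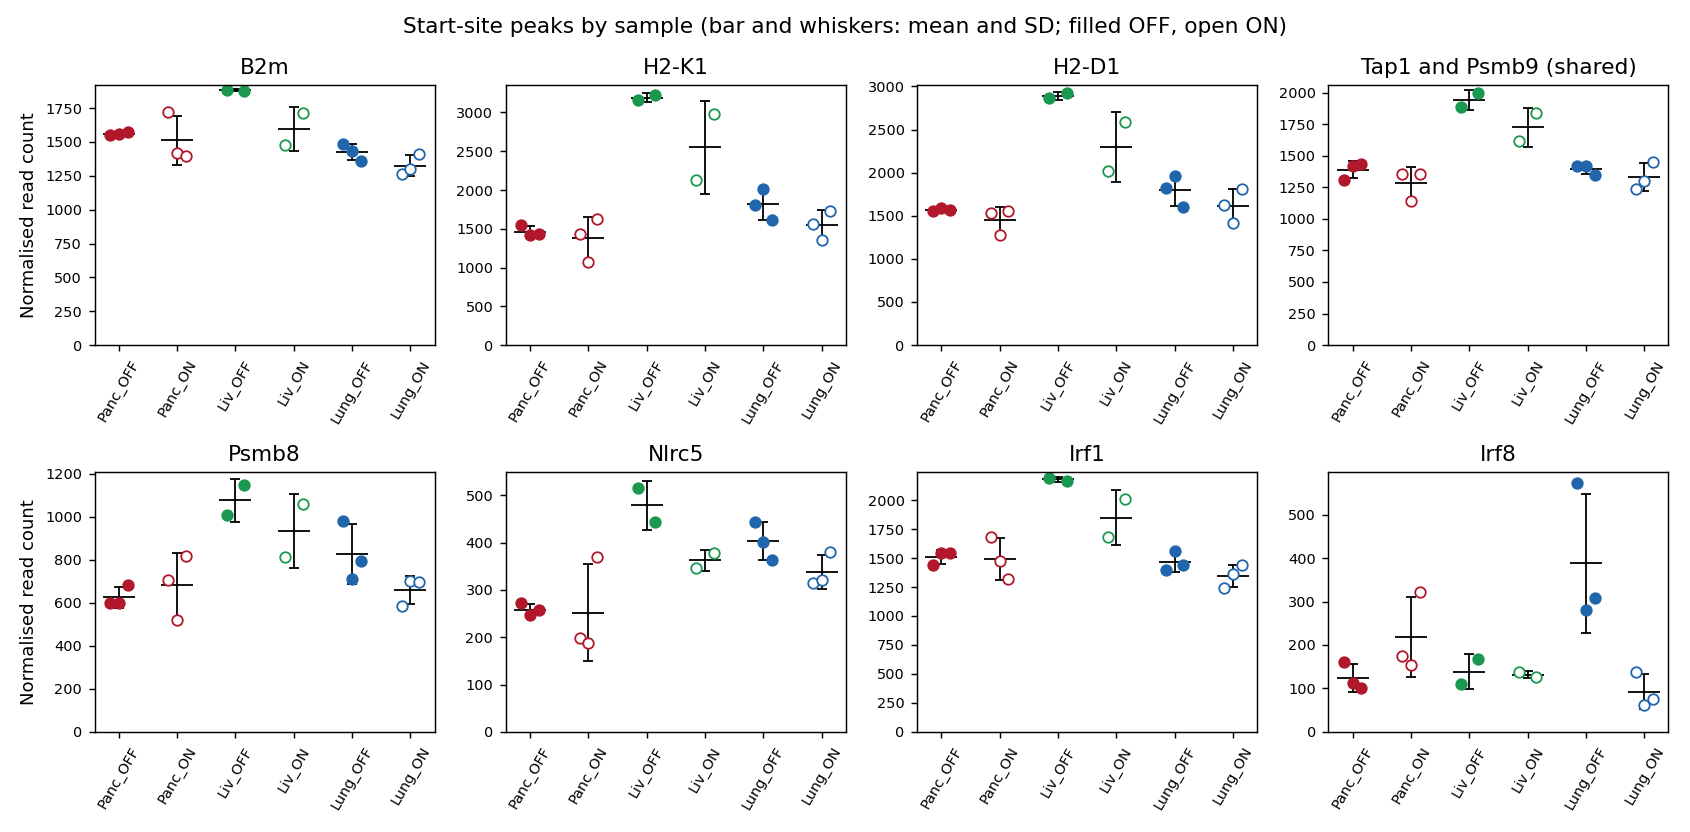
Normalised read count (vertical axes, starting at 0) at the start-site peak of each gene in all 16 samples, grouped by organ and Smad4 status, with points for samples and a bar and whiskers for mean and SD. Liv_OFF samples lie above all Panc_OFF and Lung_OFF samples at H2-K1, H2-D1, B2m, Irf1 and the shared Tap1 and Psmb9 peak, whereas at Irf8 the Lung_OFF samples are the highest apart from 1 Panc_ON sample.

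H2-K1 and H2-D1 encode the classical class I heavy chains. The H2-K1 start-site peak (chr17:33995209-34001421) had normalised counts of 1543, 1418 and 1433 in Panc_OFF, 1427, 1078 and 1626 in Panc_ON, 3155 and 3231 in Liv_OFF, 2124 and 2975 in Liv_ON, 1813, 2017 and 1612 in Lung_OFF and 1557, 1360 and 1732 in Lung_ON. Every liver sample lay above every sample of the other organs. With Smad4 off, the level was 2.18-fold that in the pancreas (log2 1.12 ± 0.16 SE, adjusted p = 5.57e-05) and 1.77-fold that in the lungs (log2 0.82 ± 0.16, adjusted p = 0.000861). With Smad4 restored, the differences were 0.89 ± 0.16 (adjusted p = 0.000327) and 0.70 ± 0.16 (adjusted p = 0.00419), the second lost without Liv_ON_2 (0.46, adjusted p = 0.132).

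The H2-D1 start-site peak (chr17:35262336-35268406) behaved in a like manner, with 1552, 1588 and 1569 in Panc_OFF, 1529, 1276 and 1551 in Panc_ON, 2861 and 2922 in Liv_OFF, 2016 and 2590 in Liv_ON, 1824, 1962 and 1597 in Lung_OFF and 1627, 1412 and 1807 in Lung_ON. Here too, all liver samples lay above all others. The log2 difference of Liv_OFF was 0.88 ± 0.13 from Panc_OFF (adjusted p = 5.51e-05) and 0.69 ± 0.13 from Lung_OFF (adjusted p = 0.000508). Of the samples with Smad4 restored, the liver differed from the pancreas by 0.66 ± 0.13 (adjusted p = 0.000482, under the fold threshold at 0.57 without Panc_ON_2 and 0.48 without Liv_ON_2), and from the lungs by 0.51, under it (0.69 without Liv_ON_1 and 0.59 without Lung_ON_3, both called).

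Other peaks of these loci shared the direction. With the start-site peaks included, 5 of the 7 H2-K1 peaks were called higher and 0 lower in Liv_OFF than in Panc_OFF. For the 6 H2-D1 peaks, again with the start site, these counts were 5 and 0. Of all peaks, 26.2% were higher and 32.3% lower. The called H2-K1 peak of smallest p in that comparison lay 21.2 kb downstream of the start site (chr17:33978359-33979696), with counts of 1021, 904 and 987 in Panc_OFF, 737, 645 and 894 in Panc_ON, 2092 and 2270 in Liv_OFF, 1627 and 2070 in Liv_ON, 1311, 1494 and 1300 in Lung_OFF and 1050, 1193 and 1350 in Lung_ON. It separated the organs without overlap in either Smad4 state, liver highest and pancreas lowest (Liv_OFF against Panc_OFF 1.17 ± 0.14, adjusted p = 1.94e-05, and against Lung_OFF 0.67 ± 0.14, adjusted p = 0.00148).

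The 120 bases around the GAS (capitals) of that peak are shown because this named distal peak held such a match. Against Lung_OFF, the start-site peak had the smallest p among the called H2-K1 peaks.
H2-K1 +21.2 kb, chr17:33979138-33979257, plus strand: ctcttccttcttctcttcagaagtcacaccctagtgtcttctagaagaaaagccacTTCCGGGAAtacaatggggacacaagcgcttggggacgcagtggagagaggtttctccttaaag

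A second distal H2-K1 peak, 16.2 kb downstream, was lowest in the pancreas, with 7 to 15 in Panc_OFF, 8 to 12 in Panc_ON, 77 and 67 in Liv_OFF, 55 and 77 in Liv_ON, 9, 37 and 15 in Lung_OFF and 17 to 35 in Lung_ON. It differed by 2.65 (log2) between Liv_OFF and Panc_OFF and by 1.99 between Liv_OFF and Lung_OFF, both called. At H2-D1, the peak 15.4 kb downstream differed in the lungs too, with 66, 90 and 84 in Panc_OFF, 205 and 118 in Liv_OFF and 156, 170 and 153 in Lung_OFF. The Lung_OFF samples lay above all Panc_OFF samples (1.00 ± 0.28, adjusted p = 0.0294), and the liver samples lay on both sides of the lung samples.

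B2m encodes the light chain shared by all class I molecules. Its start-site peak (chr2:122147075-122149385) varied little, with 1551, 1562 and 1571 in Panc_OFF, 1722, 1415 and 1397 in Panc_ON, 1887 and 1879 in Liv_OFF, 1480 and 1713 in Liv_ON, 1483, 1433 and 1361 in Lung_OFF and 1261, 1299 and 1413 in Lung_ON. The Liv_OFF samples were the highest of all, but their difference from Lung_OFF (0.40 ± 0.10, adjusted p = 0.00446) and from Panc_OFF (0.27 ± 0.10, adjusted p = 0.0307) stayed under the fold threshold. A peak 9.5 kb upstream, in an intron of Patl2 on the opposite strand, had 28, 21 and 32 in Panc_OFF, 12, 11 and 16 in Panc_ON, 88 and 38 in Liv_OFF, 36 and 27 in Liv_ON, 30, 43 and 14 in Lung_OFF and 24, 17 and 17 in Lung_ON. It was called higher in Liv_OFF than in Panc_OFF (1.08 ± 0.47, adjusted p = 0.0568) and than in Lung_OFF (1.09 ± 0.47, adjusted p = 0.0638), although Liv_OFF_2 lay below Lung_OFF_2. Both calls rested on Liv_OFF_1, without which they were 0.48 (adjusted p = 0.504) and 0.49 (adjusted p = 0.52), and they were also lost without Panc_OFF_2 (adjusted p = 0.154) and Lung_OFF_3 (adjusted p = 0.255) respectively. Per kb of peak, the Liv_OFF means of the start-site peaks were 815 at B2m, 514 at H2-K1 and 476 at H2-D1. These peaks were 2310, 6212 and 6070 bp wide.

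Tap1 encodes a subunit of the peptide transporter, and Psmb8 and Psmb9 catalytic subunits of the immunoproteasome. The peak over the Tap1 and Psmb9 start sites (chr17:34186679-34188360) had 1311, 1423 and 1434 in Panc_OFF, 1357, 1141 and 1358 in Panc_ON, 1885 and 1995 in Liv_OFF, 1614 and 1836 in Liv_ON, 1417, 1420 and 1347 in Lung_OFF and 1236, 1301 and 1451 in Lung_ON. Every liver sample lay above every other sample, by 0.48 ± 0.10 from Panc_OFF (adjusted p = 0.00101) and 0.48 ± 0.10 from Lung_OFF (adjusted p = 0.00166), again under the fold threshold. The other Tap1 peak, 16.6 kb upstream, was called higher in Liv_OFF than in Panc_OFF (0.67 ± 0.30, adjusted p = 0.0697), at counts of 37 to 84 over all samples. That call was lost without Panc_OFF_1, Panc_OFF_2, Liv_OFF_1 or Liv_OFF_2 (adjusted p = 0.102 to 0.184).

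The Psmb8 start-site peak (chr17:34197362-34198727) had 598, 597 and 683 in Panc_OFF, 708, 519 and 816 in Panc_ON, 1007 and 1148 in Liv_OFF, 814 and 1058 in Liv_ON, 979, 709 and 794 in Lung_OFF and 586, 700 and 697 in Lung_ON. Both Liv_OFF samples lay above all Panc_OFF and Lung_OFF samples, and only the difference from the pancreas was called (0.78 ± 0.18, adjusted p = 0.00195).

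The rise of start sites in the liver was broad. Over all 12404 start-site peaks of the table, the median difference of Liv_OFF was 0.40 from Lung_OFF and 0.38 from Panc_OFF, with 20.8% and 22.5% called higher and 4.40% and 6.88% called lower. The 8 start-site peaks of these genes had medians of 0.44 and 0.66. Among non-member peaks within 2 Mb that had a mean count of at least 50, the median difference of Liv_OFF from Panc_OFF was 0.40 around H2-K1 (274 peaks), 0.47 around H2-D1 (271), 0.43 around Tap1 and Psmb8 (266) and 0.11 around B2m (127). The 6 epithelial markers moved with the organ as well, from 16704 to 19444 in Panc_OFF and 18522 to 27801 in Lung_OFF to 42853 to 45451 in Liv_OFF, all 6 called higher in Liv_OFF against both. The 5 fibroblast markers summed to 1560 to 2078 in Panc_OFF, 947 to 1028 in Lung_OFF and 807 to 810 in Liv_OFF. All 5 were called lower in Liv_OFF than in Panc_OFF, and 4 in Lung_OFF than in Panc_OFF. Col1a1, whose locus also holds the shRNA, made up most of each sum (1258, 1403 and 1350 in Panc_OFF). Lum had 115, 176 and 272 in Panc_OFF, 6, 5 and 6 in Lung_OFF and 33 and 7 in Liv_OFF. The part of the epithelial and fibroblast markers in the differences between organs was not tested.

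**Figure D2:**
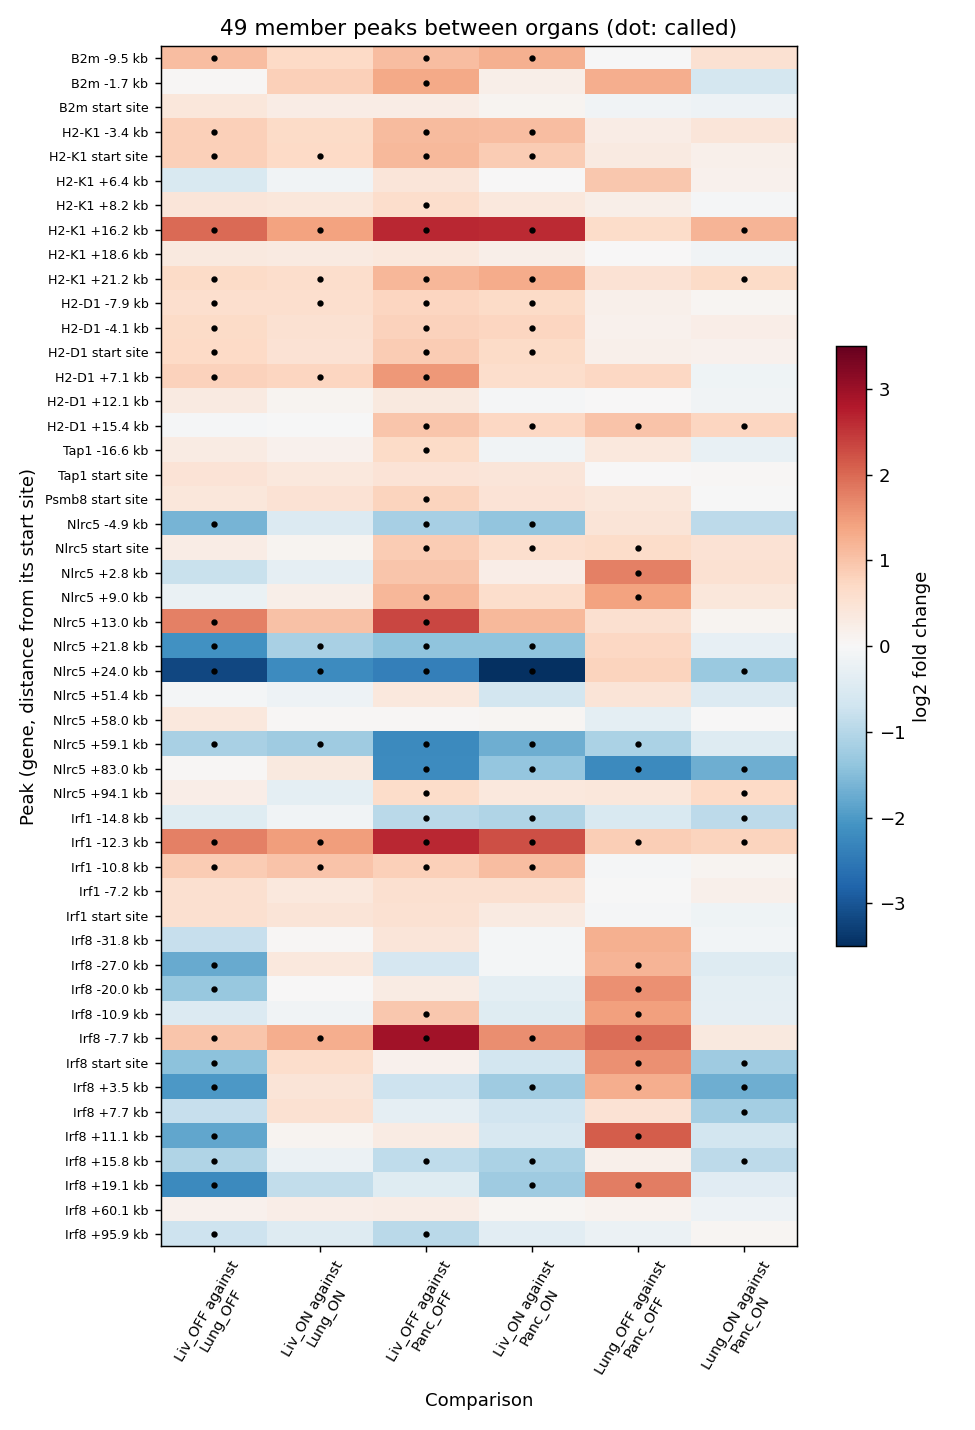
Log2 fold change between organs (colour, red higher in the first group) of all 49 peaks (rows, by gene and distance from its start site) in the 6 organ comparisons (columns), with a dot for a called peak. The H2-K1 and H2-D1 rows hold called peaks higher in the liver and none lower, whereas the Irf8 rows hold 8 peaks higher in Lung_OFF than in Panc_OFF.

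Nlrc5 encodes the transactivator of class I genes. At its start site (chr8:94433727-94434619) the counts were 272, 247 and 257 in Panc_OFF, 198, 187 and 370 in Panc_ON, 516 and 443 in Liv_OFF, 347 and 379 in Liv_ON, 444, 401 and 364 in Lung_OFF and 314, 322 and 380 in Lung_ON. Panc_OFF was the lowest of the groups with Smad4 off and did not overlap with the others, whereas Liv_OFF and Lung_OFF overlapped. The peak was called higher in Liv_OFF (0.88 ± 0.23, adjusted p = 0.00414) and in Lung_OFF (0.63 ± 0.21, adjusted p = 0.0562) than in Panc_OFF, and in Liv_ON than in Panc_ON (0.60 ± 0.23, adjusted p = 0.0366). The call of Lung_OFF was lost without Lung_OFF_1 (0.56, adjusted p = 0.12), without Lung_OFF_2 (adjusted p = 0.112), without Panc_OFF_2 (adjusted p = 0.153) and without Panc_OFF_3 (adjusted p = 0.15). That of Liv_ON was lost without Panc_ON_1 (0.46, adjusted p = 0.122), Panc_ON_2 (0.42, adjusted p = 0.145) or Liv_ON_2 (0.53, adjusted p = 0.181).

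Of the 12 Nlrc5 peaks, 4 were called higher and 5 lower in Liv_OFF than in Panc_OFF, near the shares of 26.2% and 32.3% over all peaks. An intronic peak 24.0 kb into the gene (chr8:94457775-94459015) was low in the liver, with 62, 104 and 69 in Panc_OFF, 149, 149 and 277 in Panc_ON, 11 and 17 in Liv_OFF, 16 and 14 in Liv_ON, 259, 78 and 111 in Lung_OFF and 91, 74 and 60 in Lung_ON. This peak lay 11615 bp from another Nlrc5 start site. All 4 liver samples lay far below all others. The differences were −3.17 ± 0.43 from Lung_OFF (adjusted p = 7.54e-05, and −2.69 without Lung_OFF_1) and −2.41 ± 0.43 from Panc_OFF (adjusted p = 0.000292), and −2.20 and −3.50 with Smad4 restored. Another intronic peak, 83.0 kb downstream (chr8:94516674-94518093), was instead highest in the pancreas, with 153, 234 and 343 in Panc_OFF, 326, 267 and 111 in Panc_ON, 58 and 42 in Liv_OFF, 87 and 77 in Liv_ON, 30, 66 and 55 in Lung_OFF and 49, 73 and 73 in Lung_ON. It lay 7684 bp from another Nlrc5 start site. All pancreas samples lay above all others (Lung_OFF against Panc_OFF −2.24 ± 0.39, adjusted p = 0.00208, and Liv_OFF against Panc_OFF −2.20 ± 0.44, adjusted p = 0.000618).

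The 120 bases around a GAS in the first and around an ISRE match in the second (capitals) are shown because one of these peaks was low in the liver and the other in the liver and the lungs.
Nlrc5 +24.0 kb, chr8:94458010-94458129, plus strand: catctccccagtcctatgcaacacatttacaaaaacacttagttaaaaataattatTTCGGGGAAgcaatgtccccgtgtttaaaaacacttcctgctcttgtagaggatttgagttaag
Nlrc5 +83.0 kb, chr8:94516954-94517073, plus strand: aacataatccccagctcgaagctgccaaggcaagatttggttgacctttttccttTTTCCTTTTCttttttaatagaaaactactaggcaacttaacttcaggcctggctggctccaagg

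Irf1 encodes an interferon-induced activator of class I and immunoproteasome genes. Its start-site peak (chr11:53768674-53771759) had 1444, 1545 and 1542 in Panc_OFF, 1681, 1473 and 1318 in Panc_ON, 2192 and 2165 in Liv_OFF, 1678 and 2014 in Liv_ON, 1399, 1565 and 1444 in Lung_OFF and 1240, 1359 and 1436 in Lung_ON. Liv_OFF was clear of all other groups (0.57 ± 0.11 from Lung_OFF, adjusted p = 0.000762, and 0.53 ± 0.11 from Panc_OFF, adjusted p = 0.000828), just under the fold threshold. A peak 12.3 kb upstream (chr11:53757543-53757999) showed the order liver, lungs, pancreas without overlap in both Smad4 states. Its counts were 26, 31 and 27 in Panc_OFF, 22, 22 and 17 in Panc_ON, 170 and 184 in Liv_OFF, 82 and 126 in Liv_ON, 40, 66 and 51 in Lung_OFF and 36, 39 and 33 in Lung_ON. It was called in all 6 comparisons between organs, 6.18-fold higher in Liv_OFF than in Panc_OFF (2.63 ± 0.30, adjusted p = 1.4e-05), 3.42-fold higher than in Lung_OFF (1.77 ± 0.30, adjusted p = 0.000347), and 1.81-fold higher in Lung_OFF than in Panc_OFF (0.85 ± 0.27, adjusted p = 0.0501). The last call was lost without Panc_OFF_1 (adjusted p = 0.123), Panc_OFF_3 (adjusted p = 0.148) or Lung_OFF_2 (adjusted p = 0.17), and that of Lung_ON against Panc_ON without Panc_ON_3 (0.66, adjusted p = 0.106) or Lung_ON_2 (0.73, adjusted p = 0.132).

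Irf8 encodes a factor best known for its part in macrophage, dendritic cell and B cell development. The counts at its start site (chr8:120735852-120736881) were 160, 112 and 100 in Panc_OFF, 175, 154 and 323 in Panc_ON, 110 and 167 in Liv_OFF, 137 and 127 in Liv_ON, 573, 281 and 309 in Lung_OFF and 138, 62 and 76 in Lung_ON. With Smad4 off, the lung samples lay above all pancreas and liver samples. With Smad4 restored, they lay below all pancreas samples. Lung_OFF was 3.02-fold above Panc_OFF (1.59 ± 0.35, adjusted p = 0.00764, and 1.28 with adjusted p = 0.0265 without Lung_OFF_1). Liv_OFF differed from Lung_OFF by −1.44 ± 0.39 (adjusted p = 0.00702, and −1.12 with adjusted p = 0.0325 without Lung_OFF_1). Lung_ON differed from Panc_ON by −1.24 ± 0.35 (adjusted p = 0.0173, and −0.91 with adjusted p = 0.0656 without Panc_ON_3).

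The peak 3.5 kb downstream, over an exon (chr8:120739412-120740384), followed the start site, with 108, 95 and 103 in Panc_OFF, 157, 126 and 200 in Panc_ON, 56 and 67 in Liv_OFF, 71 and 62 in Liv_ON, 358, 180 and 240 in Lung_OFF and 109, 22 and 46 in Lung_ON. This peak lay 1259 bp from another Irf8 start site. Lung_OFF was clear of both other groups with Smad4 off, and Lung_ON lay below Panc_ON and on both sides of Liv_ON. The difference of Liv_OFF from Lung_OFF was −2.02 ± 0.46 (adjusted p = 0.00223), and that of Lung_OFF from Panc_OFF 1.28 ± 0.41 (adjusted p = 0.0494). The second call was lost without Lung_OFF_1 (1.03, adjusted p = 0.136), without Panc_OFF_2 (adjusted p = 0.134) and without Panc_OFF_3 (adjusted p = 0.132).

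In all, 8 of the 13 Irf8 peaks were called higher and 0 lower in Lung_OFF than in Panc_OFF, where 6.59% of all peaks were higher and 10.7% lower. In Liv_OFF against Lung_OFF, 8 were called lower and 1 higher, where 26.8% of all peaks were lower and 22.9% higher. The exception was a peak 7.7 kb upstream (chr8:120728230-120729187) in an intron of the read-through model Gm20388, which was highest in the liver. Its counts were 17, 12 and 12 in Panc_OFF, 21, 19 and 31 in Panc_ON, 115 and 103 in Liv_OFF, 82 and 66 in Liv_ON, 56, 88 and 34 in Lung_OFF and 34, 27 and 29 in Lung_ON. All 3 organs were separate with Smad4 off (Liv_OFF against Panc_OFF 2.93 ± 0.38, adjusted p = 2.8e-05, Lung_OFF against Panc_OFF 1.96 ± 0.34, adjusted p = 0.00189, and Liv_OFF against Lung_OFF 0.97 ± 0.38, adjusted p = 0.0445). The last of these calls was lost without Liv_OFF_1 (adjusted p = 0.179), Liv_OFF_2 (adjusted p = 0.118) or Lung_OFF_3 (adjusted p = 0.186).

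The 120 bases around its GAS (capitals) are shown because this peak alone of the Irf8 locus was called higher in the liver than in the lungs.
Irf8 −7.7 kb, chr8:120728807-120728926, plus strand: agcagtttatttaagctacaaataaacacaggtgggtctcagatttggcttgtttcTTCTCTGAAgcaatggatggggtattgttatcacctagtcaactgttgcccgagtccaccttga

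**Figure D3:**
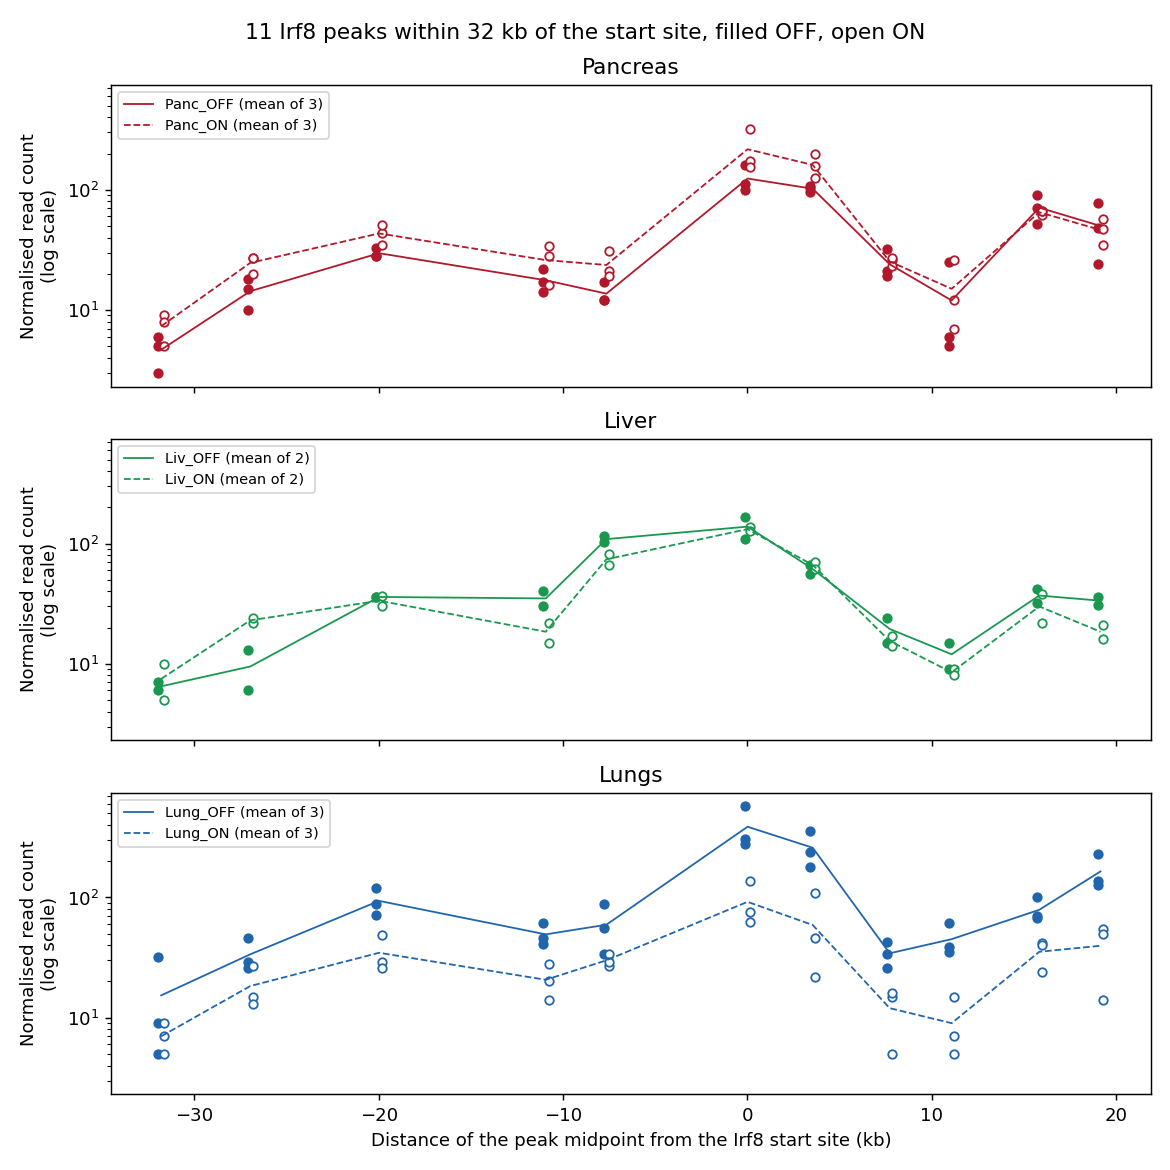
Normalised read count (log scale) of the 11 Irf8 peaks within 32 kb of the start site against their distance from it in kb, with a panel for each organ, points for samples (filled OFF, open ON) and lines for group means. In the lungs 8 of the 11 peaks have every ON sample below every OFF sample, and in the liver panel the peak 7.7 kb upstream is close to the start site in height.

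Counts over all 49 peaks are given beside those over all nuclear peaks. In Liv_OFF against Lung_OFF, 13 were called higher and 12 lower, in a background of 22.9% and 26.8% of all peaks (49.7% in either direction). Against Panc_OFF, 22 peaks were higher in Liv_OFF and 8 lower (background 26.2% and 32.3%, or 58.5%), and 13 were higher in Lung_OFF and 2 lower (background 6.59% and 10.7%, or 17.3%). Without Lung_OFF_1 these last counts were 9 and 1. The members' median log2 difference was 0.25 in the first comparison, 0.53 in the second and 0.45 in the third, with 0.00, −0.05 and 0.03 over all peaks. Of the 13 peaks higher in Lung_OFF than in Panc_OFF, 8 belonged to Irf8, 3 to Nlrc5, 1 to Irf1 and 1 to H2-D1.

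With Smad4 restored, 8 peaks were higher and 3 lower in Liv_ON than in Lung_ON (background 17.6% and 18.2%, or 35.8%), and 13 and 9 in Liv_ON than in Panc_ON (background 27.1% and 32.2%, or 59.4%). In Lung_ON, 5 peaks were higher and 7 lower than in Panc_ON (background 12.8% and 14.9%, or 27.8%). All 11 calls between Liv_ON and Lung_ON were among the 25 calls between Liv_OFF and Lung_OFF (44% of these), in the same direction. Between liver and pancreas 20 peaks were called in both states, all in the same direction. Between lungs and pancreas 5 were, of which 2 turned around, the Irf8 start site and the peak 3.5 kb downstream of it. Both were higher in the lungs with Smad4 off and lower with Smad4 restored. At the second peak the call with Smad4 off was lost without Lung_OFF_1, Panc_OFF_2 or Panc_OFF_3. Panc_ON_3 was the highest Panc_ON sample at both. The share of all peaks called in both states, or keeping its direction, was not counted, so these overlaps have no background.

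The question of Smad4 restoration was asked within each organ. None of the 49 peaks was called in the pancreas (background 3.42%), the liver (0.55%) or the lungs (0.00366%), while limma gave an unadjusted p under 0.05 for 5, 4 and 13 of them and for 16.9%, 12.1% and 7.11% of all peaks. The quasi-likelihood test of edgeR called 0 in each organ (3.25%, 0.121% and 0.00366% of all peaks), and the Wald test of DESeq2 called 1 for the pancreas, 0 for the liver and 6 for the lungs (6.8%, 2.33% and 0.73% of all peaks). Averaged over organs, 2 peaks were called lower and 0 higher (background 3.0% and 3.61%, or 6.62%), those 19.1 kb downstream of Irf8 and 9.5 kb upstream of B2m, and neither kept its call in every fit that left out a sample.

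No start-site peak of the class I chains was called. At the H2-K1 start site the change on restoration was −0.11 in the pancreas (95% interval −0.39 to 0.17), −0.34 in the liver (−0.69 to 0.00) and −0.23 in the lungs (−0.51 to 0.05). At H2-D1 it was −0.12 (−0.34 to 0.10), −0.34 (−0.61 to −0.07) and −0.15 (−0.37 to 0.07), and at B2m −0.05 (−0.23 to 0.12), −0.24 (−0.46 to −0.02) and −0.11 (−0.28 to 0.07). The limma adjusted p was between 0.331 and 0.888 for these 9 values, and the intervals are the estimate ± 1.96 SE. Both Liv_ON samples lay below both Liv_OFF samples at all 3 start sites. The Panc_ON samples lay below the Panc_OFF samples at H2-D1, by 1551 against 1552 at the nearest. In either direction, the groups were apart at 26 of the 49 peaks in the liver and at 11 in the pancreas. The share over all peaks was not counted, so no conclusion is drawn from these counts. Groups of n = 2, as in the liver, come apart more easily than groups of n = 3. Over all 12404 start-site peaks the median change in the liver was −0.16.

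At Irf8 the lung counts lay lower with Smad4 restored, without a call in the fit over all samples. All 13 of its peaks had a negative difference there, from −0.18 to −2.35 with a median of −1.24, against −0.31 over the 49 peaks and 0.00 over all peaks. In the pancreas 10 of the 13 differences were positive. At 8 of the 13 peaks every Lung_ON sample lay below every Lung_OFF sample, which held at 15 of the 49 peaks and at 4.82% of all peaks. At the start site the difference was −2.07 ± 0.35 in the lungs (adjusted p = 0.158), 0.76 ± 0.35 in the pancreas (adjusted p = 0.283) and −0.04 ± 0.43 in the liver (adjusted p = 0.982). At the peak 3.5 kb downstream it was −2.35 ± 0.41 in the lungs (adjusted p = 0.182).

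Whether these are calls depended on the fit. Each sample came from its own mouse. A block by replicate number was used for the lungs because same-numbered samples correlated there in these data (0.491, 0.124 and 0.214). The pancreas gave −0.330, 0.027 and −0.330, so values of this size do not show that samples were pairs. Calls with the block therefore rest on a pairing that was not shown. With this block, limma called 2 members in the lungs, in a background of 0.03%. They were the Irf8 start site (adjusted p = 0.0377) and the peak 3.5 kb downstream (adjusted p = 0.0113). DESeq2 gave adjusted p-values of 9.7e-05 and 0.000365 for these peaks and edgeR 0.18 and 0.206. Without Lung_OFF_1 the start-site difference was −1.76 (adjusted p = 0.18), and without Lung_ON_1 it was −2.41 (adjusted p = 0.0676). The median difference of the 307 non-member peaks within 2 Mb was 0.14. The 4 macrophage and dendritic cell markers with a start-site peak overlapped between Lung_OFF and Lung_ON: Csf1r had 35, 14 and 23 against 20, 17 and 8, Itgax 74, 23 and 23 against 26, 45 and 20, Cd68 256, 401 and 396 against 290, 312 and 376, and Flt3 378, 216 and 327 against 298, 265 and 270. Cdh5 had 697, 129 and 54 in Lung_OFF and 111, 22 and 46 in Lung_ON. Their part in the Irf8 difference was not tested.

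**Figure D4:**
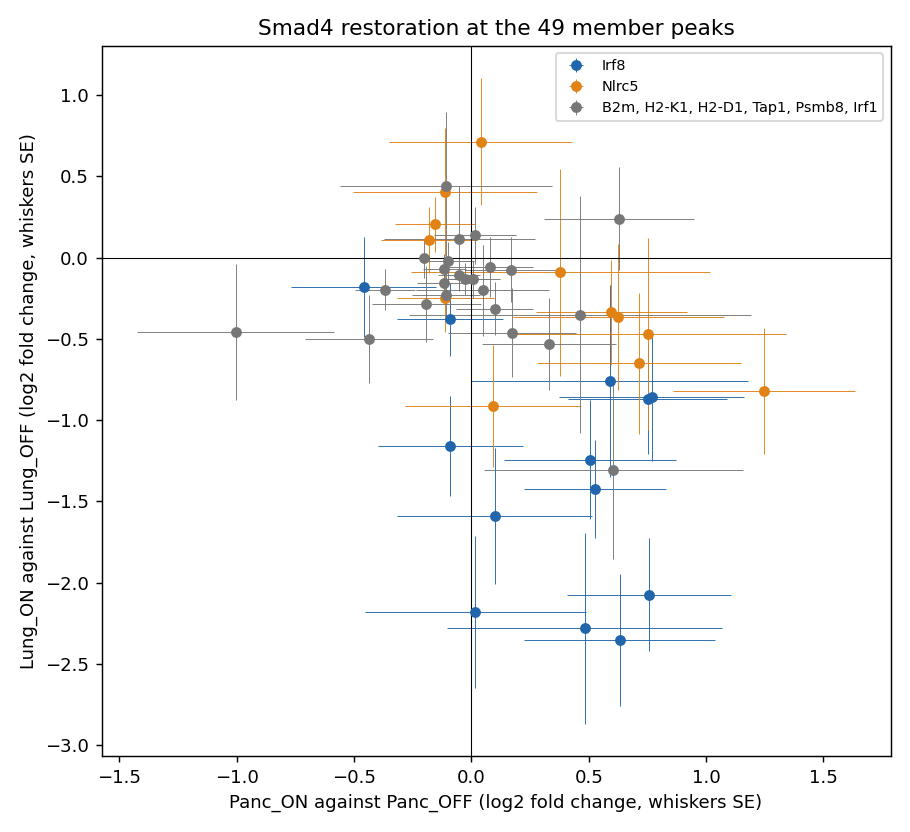
Log2 fold change on Smad4 restoration in the lungs (vertical axis) against that in the pancreas (horizontal axis) for the 49 peaks, with whiskers for the SE of each. Irf8 peaks all lie below 0 on the lung axis, down to −2.35, and 10 of 13 lie above 0 on the pancreas axis, and the Nlrc5 point farthest to the right is the peak 24.0 kb into the gene at 1.25.

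The response of the lungs was also compared with that of the other organs directly. The interaction terms called 0 of the 49 peaks for lungs against pancreas (background 0%), liver against lungs (0%) and liver against pancreas (0%), with 14, 4 and 2 at an unadjusted limma p under 0.05, as had 10.96%, 5.25% and 3.95% of all peaks. With the lung block, 5 members were called for lungs against pancreas, 4 of them at Irf8 (background 1.75%), and 0 for liver against lungs (background 0%). DESeq2 called 5 (background 1.65%) and edgeR 0 (background 0%) for lungs against pancreas. At the Irf8 start site the response in the lungs was lower than in the pancreas by −2.83 (log2, adjusted p = 0.229, and 0.0205 with the lung block).

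At Nlrc5, the intronic peak at 24.0 kb was higher in all 3 Panc_ON samples than in any Panc_OFF sample (1.25 ± 0.39, adjusted p = 0.114, not called). It was called with the lung block (adjusted p = 0.0459), by DESeq2 (adjusted p = 0.0367) and without Lung_OFF_1 (adjusted p = 0.0324), and was 0.95 (adjusted p = 0.265) without Panc_ON_3.

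Other genes of the pathway gave 331 peaks in 5 lists. In Liv_OFF against Panc_OFF 113 were called higher and 56 lower (51.1%), in Liv_OFF against Lung_OFF 81 and 53 (40.5%), and in Lung_OFF against Panc_OFF 26 and 11 (11.2%), beside the backgrounds above. Of 24 peaks of other class I processing genes (such as Tap2, Tapbp, Psmb10 and Erap1), 5 were higher and 1 lower in Liv_OFF than in Panc_OFF, and 0 of their 12 start sites were called. Of 26 peaks of class II presentation genes, 15 were higher and 1 lower, with 6 of 7 start sites called higher. In that comparison 22.5% of all start-site peaks were called higher and 6.88% lower. Interferon receptor and JAK-STAT genes had 48 higher and 32 lower of 156, other interferon regulatory factors 22 and 14 of 62, and interferon-stimulated genes 23 and 8 of 63. Averaged over organs, restoration gave 3 peaks called higher and 11 lower of the 331 (4.23%), where 3.61% of all peaks were higher and 3.0% lower.

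At Cd74, the class II invariant chain, the start site had 84, 101 and 75 in Panc_OFF, 54, 31 and 245 in Panc_ON, 378 and 401 in Liv_OFF, 174 and 433 in Liv_ON, 260, 215 and 190 in Lung_OFF and 148, 113 and 131 in Lung_ON. The groups with Smad4 off did not overlap, liver highest and pancreas lowest (Liv_OFF against Panc_OFF 2.17 ± 0.57, adjusted p = 0.00416), and Panc_ON_3 stood far above the other Panc_ON samples. Of the 12 start sites of interferon receptor and JAK-STAT genes, 2 were called higher in Liv_OFF than in Panc_OFF and 0 lower. They were Ifngr1 and Ifngr2, the chains of the interferon gamma receptor (0.68 ± 0.14, adjusted p = 0.000749, and 0.71 ± 0.13, adjusted p = 0.000427). Of 15 start sites of interferon-stimulated genes, 5 were called higher and 1 lower in Liv_OFF than in Panc_OFF. Over all start-site peaks these shares were 22.5% and 6.88%. Oasl1 had 651, 629 and 585 in Panc_OFF and 1722 and 1856 in Liv_OFF (1.52 ± 0.20), and Ifit2 was the one called lower (−0.75 ± 0.18, adjusted p = 0.0022).

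Over the central 300 bp of the 49 peaks, motifs were read as a description. The AP-1 motif (TGANTCA) was found in 9 (18.4%, with 34.1% of all peaks), RUNX (TGTGGT) in 10 (20.4%, with 27.0%), KLF (GGGNGTGG) in 2 (4.08%, with 10.97%), NF-kB in 2 (4.08%, with 1.65%), ETS-IRF in 2 (4.08%, with 5.80%), ISRE in 1 (2.04%, with 4.13%) and GAS in 1 (2.04%, with 10.1%). The SMAD palindrome (GTCTAGAC) was found in 0, with 0.326% of all peaks. The motifs of the 4 distal windows printed above were found by reading the whole peak, which is longer than 300 bp. The shares over 300 bp are therefore no background for them. Windows were printed only for named distal peaks with an ISRE, GAS or NF-kB match. Named distal peaks without one, such as that 12.3 kb upstream of Irf1, are not shown.

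The start-site peaks were matched with those of 11161 candidate peaks by the Pearson correlation of log2 values over the 16 samples, which share libraries and depth. H2-K1 and H2-D1 were each the most like the other (r = 0.989). The peaks most like the rest were those of Spry2 for B2m (0.969), A630089N07Rik for Tap1 (0.979), Plekhn1 for Psmb8 (0.924), Lonrf3 for Nlrc5 (0.949), Brwd3 for Irf1 (0.978) and Gbp5 for Irf8 (0.853). The next nearest for Nlrc5 included Nlrc4 (0.935), Batf2 (0.930) and Cd74 (0.925).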

How the data were processed

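The deposited values are signal: reads per peak divided by a DESeq2 size factor by the authors, who used Trim Galore and cutadapt for trimming, Bowtie2 for alignment (mm10) and MACS2 for peaks, removed ENCODE blacklist regions, merged peaks within 500 bp and counted with featureCounts. FastQC 0.11.5 is named in the submitters' processing notes. Dividing each column by the value of 1 read gave whole reads for 100% of values (tolerance 0.1). Peaks were assigned with GENCODE vM21 start sites. limma 3.58.1 (R 4.3.3, trended and robust moderation) was fitted on log2(normalised count + 1) with 6 group means, and p-values were adjusted by Benjamini-Hochberg over 136630 nuclear peaks. Fold changes are on that scale and understate those of low peaks. edgeR 4.0.16 and DESeq2 1.42.0 were run on the recovered reads as alternatives, and other scalings, filters, a GC correction, replicate blocks and each sample left out were tried. Text tables and sequences were made with Python 3.11.15, pandas 2.3.3, numpy 2.4.6 and pysam 0.24.0, and the fit was tested on simulated data. Deviations of same-numbered OFF and ON samples correlated at 0.491, 0.124 and 0.214 in the lungs. The correlations were −0.330, 0.027 and −0.330 in the pancreas and 0.083 in the liver. The block in the lungs was chosen from these values alone, and they do not show that the samples were pairs. The members and lists were chosen with earlier results of these data known. Peaks named are each gene's start-site peak, any called on restoration, and the start site most like it. For each organ comparison with Smad4 off, each gene's called peak of smallest p was named too. For this, midpoints had to lie over 1000 bp from any start site, and at H2-K1 and H2-D1 it can be the wide start-site peak. Peaks beside these were chosen after their values were seen. An allele of the model is not reported here.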

Additional observations from a re-analysis of the deposited data

Results flagged for a closer look

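Where lung samples were blocked by replicate number, the change on Smad4 restoration differed between the lungs and the pancreas at 5 of the 49 peaks, by the interaction term of limma with Benjamini-Hochberg adjustment. This fit called 1.75% of all peaks. Each sample came from its own mouse, and the pairing was taken from correlations in these same data, for the lungs alone. The difference (lungs minus pancreas, log2) was −2.83 ± 0.38 SE at the Irf8 start site (adjusted p = 0.0205) and −2.98 ± 0.36 at the peak 3.5 kb downstream of it (adjusted p = 0.0155). It was −1.95 ± 0.37 at the Irf8 peak 20.0 kb upstream (adjusted p = 0.0403) and −2.20 ± 0.56 at that 19.1 kb downstream (adjusted p = 0.0917). At the Nlrc5 peak 24.0 kb into the gene it was −2.07 ± 0.46 (adjusted p = 0.0623), where Panc_ON_3 (277, with 149 and 149 in the group) and Lung_OFF_1 (259, with 78 and 111) were high. In the fit without the block, the Nlrc5 difference was −1.77 (adjusted p = 0.223) without Panc_ON_3 and −1.58 (adjusted p = 0.5) without Lung_OFF_1, and the Irf8 start-site difference −2.51 with each of them left out in turn (adjusted p = 0.129 and 0.277). Without the block none of the 5 passed (adjusted p = 0.229 at the Irf8 start site and 0.247 at Nlrc5).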

How the results depend on the processing

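Counts of called members are given in the order Liv_OFF against Lung_OFF, Liv_OFF against Panc_OFF, Lung_OFF against Panc_OFF, and the same with Smad4 restored. Leaving out 1 sample at a time they ranged over 18 to 25, 22 to 31, 8 to 17, 4 to 12, 11 to 25 and 7 to 13, and for restoration over 0 to 1 in the pancreas, 0 to 0 in the liver, 0 to 2 in the lungs, 0 to 3 averaged and 0 to 4 for lungs against pancreas. Lung_OFF against Panc_OFF was 8 without Panc_OFF_2 or Panc_OFF_3, Liv_ON gave 4 against Lung_ON and 11 against Panc_ON without Liv_ON_2, and Lung_ON against Panc_ON was 7 without Panc_ON_1 or Panc_ON_2. The 331 other pathway peaks ranged over 97 to 151, 138 to 176 and 15 to 50 with Smad4 off (19 without Panc_OFF_2 and 15 without Panc_OFF_3 for Lung_OFF against Panc_OFF) and 4 to 24 averaged (4 without Liv_OFF_1 or Liv_ON_1, 24 without Lung_OFF_1). Thresholds of 1 and 0.05 gave 14, 14 and 9 with Smad4 off, 6 in Liv_ON against Lung_ON, 5 in Lung_ON against Panc_ON and 0 averaged. Quantile normalisation gave 7 in Liv_ON against Lung_ON and 1 for restoration in the pancreas, and GC correction 6 and, averaged, 1. The replicate block in the lungs gave 1 in the pancreas, 2 in the lungs and 5 for lungs against pancreas, with GC correction (added after seeing the data) 2, 2 and 5, and 7 in Liv_ON against Lung_ON. A block in every organ gave 1 in the pancreas and 2 for lungs against pancreas, and with GC correction 7 in Liv_ON against Lung_ON and 1 averaged. Only the groups compared gave 1 in the pancreas, and DESeq2 1 there, 6 in the lungs and 5 for lungs against pancreas. Of all counts, 250 of 272 leaving out a sample and 205 of 230 otherwise stayed within 1.5 times, and no result reversed. The causes were not tested. With n = 2 or 3 per group, the results cover these mice alone. In the main fit each peak had 1 estimate of spread, shared by all 6 groups and moderated over all nuclear peaks. The p-values of the liver therefore rest on the pancreas and lung samples too. Low counts limit what distal peaks can show.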

Other observations

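Panc_ON_3 and Lung_OFF_1 were both high at several immune loci. At the Nlrc5 peak 2.8 kb into the gene they had 166 and 200, with 20 to 91 in the other 14 samples. At the peak 1.7 kb upstream of B2m they had 93 and 125, with 15 to 74 in the others. At the Nlrc5 peak 4.9 kb upstream they had 57 and 67, with 8 to 36 in the others.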
